A study of Mus musculus with 8 samples.

Results

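The genes described here are 42 genes of cell division, 34 that act in mitosis and cytokinesis and 8 that act in DNA replication. They were chosen by name from textbook components of the 2 processes, with earlier results of these data known. All 42 were matched by Ensembl identifier and found among the 55487 genes of the count table. The tissue was mouse heart, and polyadenylated RNA was sequenced. The DIZE group holds 4 libraries from db/db mice given DIZE. The name is read here as diminazene aceturate, an antiprotozoal drug. The vehicle group holds 4 libraries from db/db mice given vehicle. Both groups carry the same mutation of the leptin receptor, which makes the mice obese and diabetic, and no non-diabetic heart was analysed here. The labels do not give age, sex, dose or length of treatment, nor do they say whether any 2 libraries share an animal. Sample titles come in a form with the letters db and a form without, each with 2 libraries per group, and what the form stands for is not stated. The p-values thus cover only how these samples spread, which may be technical.

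A dividing cell copies its DNA in S phase, condenses and separates its chromosomes in mitosis, and splits in cytokinesis. Adult cardiomyocytes divide rarely, and most cycling cells in an adult heart are endothelial cells, fibroblasts and immune cells. The replication genes are switched on before S phase, largely through E2F sites in their promoters. Most mitotic genes peak later, in G2 and M, and many are repressed in resting cells by the DREAM complex, which binds a short element called CHR and often acts together with CCAAT boxes bound by NF-Y.

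Promoter windows were available for 28 of the 34 mitotic genes and 7 of the 8 replication genes, as RefSeq sequence of GRCm38.p6 from 250 bases before to 50 bases after the start of the gene. Both strands were searched. The CHR was searched as TTTGAA and its variant TTCGAA, and the CCAAT box by the letters in its name. For E2F the search took the form TTGGCGC, the form TTCCCGC, the form TTGCCGC and the form TTCGCGC. An E2F match can overlap an E2F match on the other strand or a CCAAT match. The windows below are those of the gene with the lowest unadjusted p, among tested genes with a window, in each of the 6 mitotic roles, printed 5′ to 3′ on the strand of the gene so that the shared layout can be read. Capitals mark the matches. ATTGG is a CCAAT box on the other strand, TTCAAA is a CHR on the other strand, and GCGCGAA is an E2F form on the other strand.
Cdk1, chr10:69352863-69353162, minus strand: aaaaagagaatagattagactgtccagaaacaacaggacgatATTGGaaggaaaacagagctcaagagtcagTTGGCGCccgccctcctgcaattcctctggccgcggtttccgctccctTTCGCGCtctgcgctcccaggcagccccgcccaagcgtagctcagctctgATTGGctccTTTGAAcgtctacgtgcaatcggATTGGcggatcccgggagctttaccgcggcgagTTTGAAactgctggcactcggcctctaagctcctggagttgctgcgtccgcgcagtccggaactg
Cdc20, chr4:118437294-118437593, minus strand: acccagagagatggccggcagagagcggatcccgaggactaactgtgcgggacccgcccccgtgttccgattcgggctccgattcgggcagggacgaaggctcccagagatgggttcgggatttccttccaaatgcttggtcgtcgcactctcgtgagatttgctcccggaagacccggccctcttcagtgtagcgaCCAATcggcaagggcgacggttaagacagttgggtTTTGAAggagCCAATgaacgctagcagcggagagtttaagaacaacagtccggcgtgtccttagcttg
Cenpf, chr1:189688037-189688336, minus strand: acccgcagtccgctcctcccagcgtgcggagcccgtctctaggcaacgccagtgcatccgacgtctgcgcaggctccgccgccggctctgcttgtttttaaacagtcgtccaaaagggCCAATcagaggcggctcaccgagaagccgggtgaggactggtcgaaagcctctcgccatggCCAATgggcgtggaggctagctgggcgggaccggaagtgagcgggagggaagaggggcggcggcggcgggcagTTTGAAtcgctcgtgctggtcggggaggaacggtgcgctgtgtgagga
Kif11, chr19:37376132-37376431, plus strand: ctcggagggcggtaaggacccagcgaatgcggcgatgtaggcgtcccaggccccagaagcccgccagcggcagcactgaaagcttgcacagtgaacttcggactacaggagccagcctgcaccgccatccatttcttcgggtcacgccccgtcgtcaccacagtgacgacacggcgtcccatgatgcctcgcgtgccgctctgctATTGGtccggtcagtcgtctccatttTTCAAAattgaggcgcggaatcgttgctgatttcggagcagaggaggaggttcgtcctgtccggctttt
Kif23, chr9:61946750-61947049, minus strand: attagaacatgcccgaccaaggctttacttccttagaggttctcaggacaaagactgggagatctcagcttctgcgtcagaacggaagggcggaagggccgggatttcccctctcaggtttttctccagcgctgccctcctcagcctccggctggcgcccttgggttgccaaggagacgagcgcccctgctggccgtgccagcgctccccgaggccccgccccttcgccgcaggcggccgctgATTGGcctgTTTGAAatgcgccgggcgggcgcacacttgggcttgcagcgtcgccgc
Top2a, chr11:99024140-99024439, minus strand: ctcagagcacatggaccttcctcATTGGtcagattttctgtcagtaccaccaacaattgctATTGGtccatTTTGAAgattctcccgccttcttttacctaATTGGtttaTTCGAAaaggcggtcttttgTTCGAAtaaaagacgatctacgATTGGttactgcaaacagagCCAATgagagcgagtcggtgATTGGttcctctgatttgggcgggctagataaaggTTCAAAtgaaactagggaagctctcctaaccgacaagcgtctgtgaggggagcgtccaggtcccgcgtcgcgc
The window of Mcm6, a subunit of the replicative helicase, is shown beside them, chosen by the same rule among the helicase genes. It holds E2F and CCAAT letters and no CHR.
Mcm6, chr1:128359656-128359955, minus strand: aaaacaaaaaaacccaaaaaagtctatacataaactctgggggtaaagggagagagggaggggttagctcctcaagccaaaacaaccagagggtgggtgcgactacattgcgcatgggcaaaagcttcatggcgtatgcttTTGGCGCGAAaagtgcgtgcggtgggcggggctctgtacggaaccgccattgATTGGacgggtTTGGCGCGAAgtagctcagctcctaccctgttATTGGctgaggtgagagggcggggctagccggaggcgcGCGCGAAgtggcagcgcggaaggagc

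The 6 mitotic windows all held a CHR match within 50 bases of the start, with its first letter at position -15 in Cdk1, -18 in Cdc20, 3 in Cenpf, -19 in Kif11, 3 in Kif23 and -23 in Top2a, counted from 1 at the first transcribed base with no position 0. Each also held at least 1 CCAAT match upstream of that CHR. In Mcm6 the 5 E2F matches lay at -109, -106, -46, -43 and 25, the first 4 as overlapping pairs on opposite strands. Among all mitotic genes with a window, CHR letters stood in 23 of 28 (82.1%), against 1 of 7 replication genes (14.3%) and 21.7% of the 27025 genes with a window of this length. CHR and CCAAT letters stood together in 20 of the 28 mitotic windows (71.4%), against 1 of the 7 replication windows and 9.65% of all genes. E2F letters stood in 7 of 28 mitotic windows (25.0%) and 4 of 7 replication windows (57.1%), against 10.9% of all genes. A CHR within 50 bases of the start, a span chosen after the positions were seen, stood in 22 of 28 mitotic windows (78.6%), in 0 of 7 replication windows and in 6.12% of all genes. These matches describe letters and were not measured as binding.

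**Figure D1:**
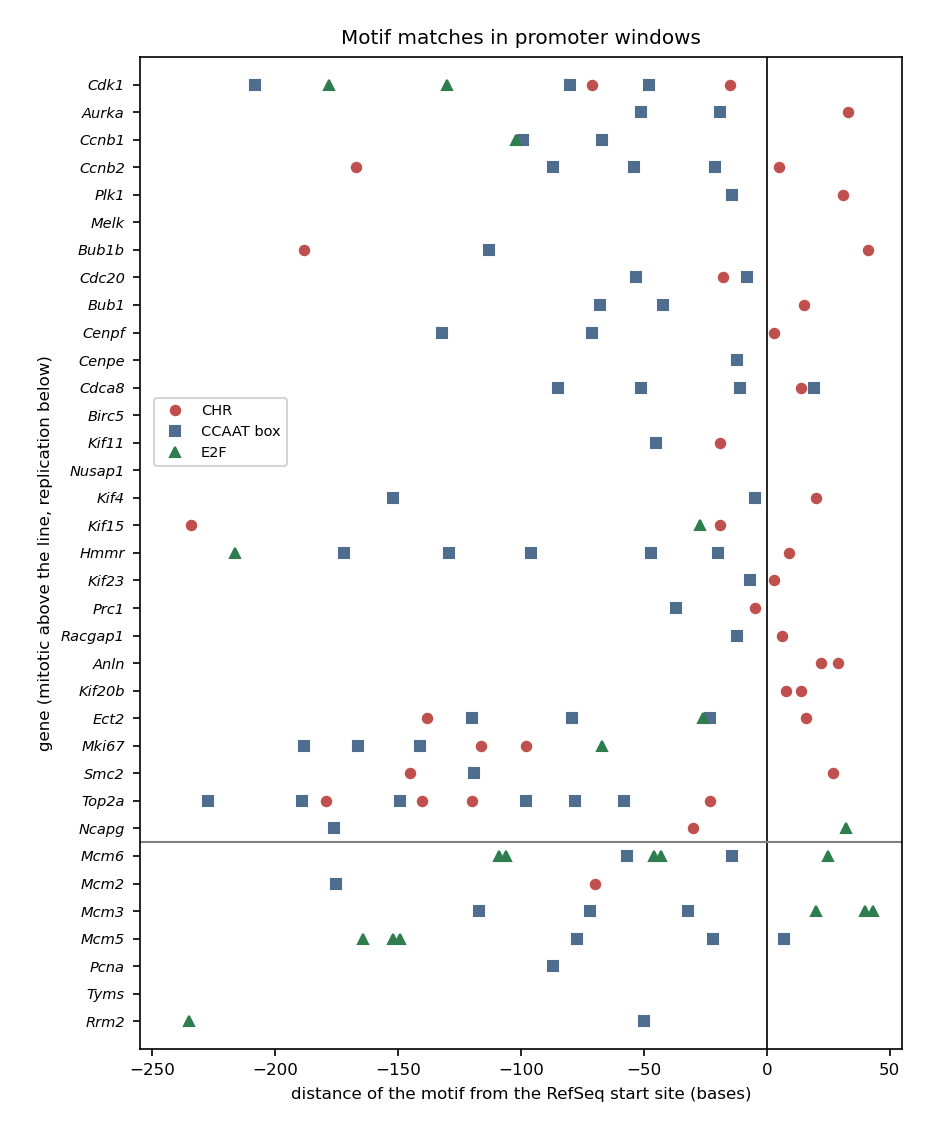
Positions of CHR (circles), CCAAT box (squares) and E2F (triangles) letters in the promoter windows of 28 mitotic genes, above the line, and 7 replication genes, below it; the horizontal axis is the distance from the RefSeq start site in bases. CHR matches gather near the start in 22 of the 28 mitotic windows and in 0 of the 7 replication windows.

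Transcripts of cell division were scarce in these hearts. Library totals ranged from 7447664 to 10161623 reads, and the 34 mitotic genes together drew 514, 741, 645 and 761 reads in DIZE 1 to 4, against 1346, 775, 864 and 1166 reads in vehicle 1 to 4. The 8 replication genes drew 707, 659, 929 and 942 reads in the DIZE libraries, against 1164, 775, 761 and 1026 reads in the vehicle libraries. Levels are given as CPM, read counts scaled to the reads in tested genes with TMM factors, where 1 CPM stood for about 7 to 10 reads. A gene was tested when enough libraries passed a count filter, a level of 1.16 CPM in 4 libraries. For this filter alone, CPM were taken on the library totals, without TMM factors. All 8 replication genes and 19 of the 34 mitotic genes passed, and the other 15 mitotic genes did not. Of the 19, only 6 were over that level in all 8 libraries. Cdk1, Tpx2 and Prc1 passed through the vehicle libraries alone and so could only come out lower in DIZE. Ccna2, Kif23, Mki67, Top2a, Aurka, Nusap1, Kif11, Kif20a and Anln were over it in all 4 vehicle libraries and in fewer than 4 DIZE libraries. These genes would not have passed on their DIZE libraries alone. Fewer than 10 reads were counted in every DIZE library for 17 of the 42 genes. Vehicle 1 stood apart from the other libraries. Its summed atrial markers were at 824 CPM, while the DIZE libraries ran from 13.6 to 130 CPM and vehicle 2 to 4 from 35.7 to 328 CPM. Its cardiomyocyte sum was the lowest, so ratios of sums are also given without it.

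Mean levels of the mitotic genes were mostly lower in DIZE hearts, though the groups overlapped for 16 of the 34 and none passed the adjusted test. The mean CPM was lower in DIZE for 33 of 34 mitotic genes, with Bub1b the exception, and for 6 of 8 replication genes, with Mcm4 and Rrm2 the exceptions. The fit without a filter gave a log2 fold change below 0 for the same number, 39 of 42, where 56% of all genes with any read were below 0. For 19 of the 42 genes, 18 of them mitotic and the other Mcm6, the highest DIZE library was below the lowest vehicle library, and the reverse held for 0. Such groups are called apart below. Over all 28260 genes with any read, 3.55% had groups apart with DIZE lower and 3.67% with DIZE higher. Of the 19, 10 were among the 27 tested genes, where 5.26% of all tested genes had DIZE lower with groups apart. Of the 10, all but Smc2 and Mcm6 would not have passed the filter on their DIZE libraries alone, so nothing is read from that count. Fitted without the filter, 22 of the 34 mitotic genes had a log2 fold change below -1, against 18.5% of all genes with any read, and the median was -1.20, against -0.03 over all genes with any read. The median of the 8 replication genes in that fit was -0.20. For the 6 mitotic genes over the filter level in all 8 libraries it was -0.31, so the -1.20 rests largely on scarcer genes. The 42 genes were chosen with earlier results of these data known, so the shares beside all genes describe them and are not a test. In bulk RNA, fewer dividing cells and less RNA per dividing cell cannot be told apart.

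No single gene of the set passed the quasi-likelihood test of edgeR after Benjamini-Hochberg adjustment over the 13648 genes tested. The count was 0 of 27 tested genes, where 0.0147% of all tested genes were called lower and 0.022% higher, and the smallest adjusted p was 0.0707, shared by Kif23, Prc1, Mki67 and Top2a. At an unadjusted p under 0.05 there were 12 lower and 0 higher, 11 mitotic and 1 of replication, against 10.3% of all tested genes lower and 9.11% higher. Of the 12, all but Smc2 and Mcm6 would not have passed the filter on their DIZE libraries alone. The count is thus given as a description and is not read against that share. DESeq2 called 7 of the genes lower, namely Cdk1, Kif11, Kif23, Prc1, Mki67, Top2a and Smc2. It gave an adjusted p to 14385 genes of the table and called 2.23% of them lower. For 14 of the 34 mitotic genes it gave none, so these could not be called. The edgeR test without the filter called 9 lower, namely Ccnb2, Cdk1, Cenpe, Kif23, Prc1, Mki67, Top2a, Ncapg and Smc2, against 0.8% of all genes, and limma-voom called 0, against 0.00733%. Without vehicle 2, the edgeR test called 5, which were Kif11, Kif23, Prc1, Mki67 and Top2a, against 1.41% of all genes. In the main fit Prc1 was over the filter level in 0 DIZE libraries, Kif23 in 1, and Mki67 and Top2a in 2 each. Vehicle 2 was also the lowest vehicle library for 20 of the 34 mitotic genes. The count of 5 is thus not read against that share either.

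**Figure D2:**
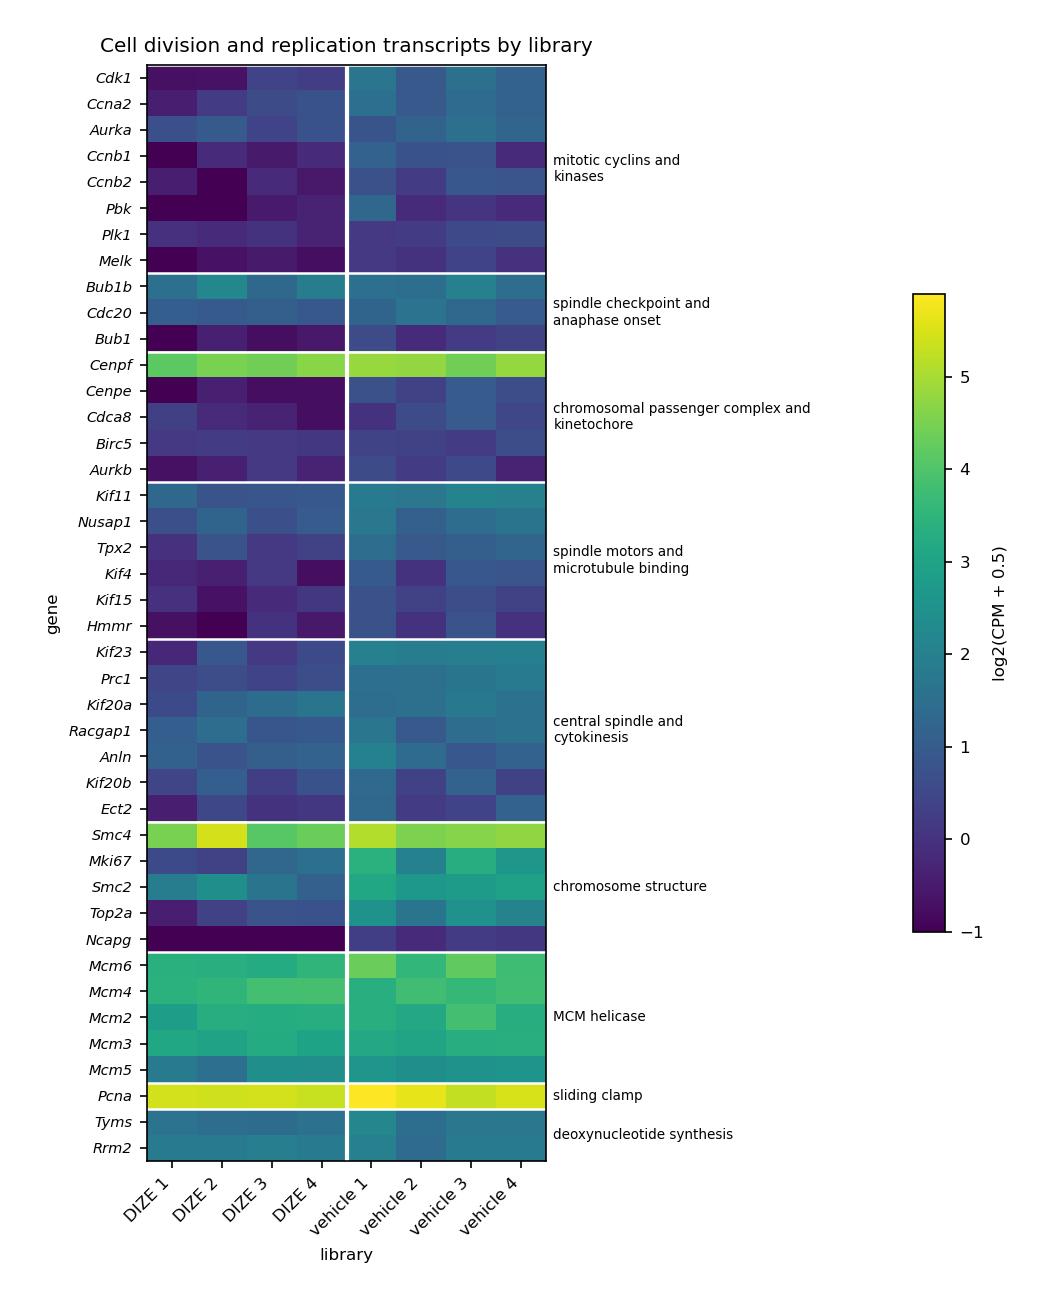
Level of each of the 42 genes in each library, as log2(CPM + 0.5) on the colour scale, with the 4 DIZE libraries left of the 4 vehicle libraries and genes grouped by role. The mitotic rows are darker in the DIZE columns for 33 of 34 genes on average. The helicase, clamp and nucleotide rows overlap between groups except Mcm6, which is lower in every DIZE library.

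The mitotic cyclins and kinases drive entry into mitosis. All 8 had a lower mean in DIZE, and 6 had groups that did not overlap. Their summed level was 2.20, 3.16, 4.14 and 4.29 CPM in DIZE 1 to 4, against 12.4, 7.95, 11.8 and 8.93 CPM in vehicle 1 to 4, a ratio of 0.336. Cdk1 encodes the kinase that starts mitosis. It had 1, 1, 8 and 7 reads in the DIZE libraries, against 27, 11, 18 and 18 reads in the vehicle libraries. The 2 groups did not overlap, and DIZE 1 and DIZE 2 were well below DIZE 3 and DIZE 4. Its mean was 0.436 ± 0.361 CPM in DIZE and 2.09 ± 0.615 CPM in vehicle (SD, n = 4 each), with a log2 fold change of -2.14 ± 0.48 SE (edgeR adjusted p = 0.0888).

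Cdk1 is active only when bound to a cyclin, and its partners were low as well. Ccna2, cyclin A2, had 2, 5, 10 and 12 reads in DIZE, against 23, 11, 16 and 18 in vehicle (log2 -1.26 ± 0.39, edgeR adjusted p = 0.138). Scaled to CPM its groups did not overlap. Its exons overlap those of Exosc9 on the other strand. Ccnb2, cyclin B2, had 2, 0, 4 and 2 reads in DIZE, against 11, 5, 10 and 13 in vehicle, so that again the groups stood apart. It was below the filter, and a pseudogene, Ccnb2-ps, held 77 reads beside its 47, so its reads are uncertain. Ccnb1, cyclin B1, had 0, 3, 2 and 4 reads in DIZE, against 17, 9, 9 and 4 in vehicle, where vehicle 4 met the DIZE range.

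The other kinases of this role act around Cdk1. Aurka, which matures the spindle poles, had 1.10, 1.45, 0.808 and 1.17 CPM in DIZE, against 1.23, 1.80, 2.41 and 1.86 CPM in vehicle, and the groups overlapped at vehicle 1 (log2 -0.68 ± 0.31, edgeR adjusted p = 0.25). Plk1, which acts from mitotic entry to cytokinesis, had 15 reads over the DIZE libraries and 28 over the vehicle libraries. Melk had 4 reads over the DIZE libraries and 21 over the vehicle libraries. For Plk1 and Melk the CPM of the groups did not overlap, at counts that leave wide error. Pbk had 0, 0, 2 and 3 reads in DIZE, against 19, 3, 4 and 4 in vehicle, so its group difference in mean rested mostly on vehicle 1.

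The spindle checkpoint holds back anaphase until chromosomes are attached. Here 1 of 3 genes had groups apart, and the summed levels overlapped, at 3.74 to 5.79 CPM in DIZE and 4.51 to 6.17 CPM in vehicle. Bub1, a checkpoint kinase at the kinetochore, had 0, 2, 1 and 2 reads in DIZE, against 10, 3, 5 and 8 in vehicle. Bub1b, which encodes the checkpoint protein BubR1, was the only mitotic gene with a higher mean in DIZE. Its levels were 2.44, 4.08, 2.02 and 3.32 CPM in DIZE, against 2.36, 2.31, 3.49 and 2.26 CPM in vehicle (log2 0.19 ± 0.28, edgeR adjusted p = 0.742). Those ranges overlapped, and with the 4 libraries whose titles lack the letters db its log2 value was -0.078. Cdc20, the activator that lets the anaphase-promoting complex start anaphase, had 1.5 ± 0.119 CPM in DIZE and 1.97 ± 0.454 CPM in vehicle (log2 -0.38 ± 0.26, edgeR adjusted p = 0.448). A short stretch of its exons overlaps Elovl1 on the other strand.

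Of the 5 genes of the chromosomal passenger complex and the kinetochore, all had a lower mean in DIZE and 2 had groups apart. Cenpe, a kinesin that carries chromosomes to the spindle equator, had 0, 2, 1 and 1 reads in DIZE, against 11, 6, 11 and 11 in vehicle. This was the widest gap among the genes with any DIZE read, at log2 -3.14 ± 0.65 in the fit without the filter (edgeR adjusted p = 0.00813 there). The passenger complex genes were measured by few reads. Birc5, or survivin, had 22 reads over the DIZE libraries and 30 over the vehicle libraries, with CPM that did not overlap. Aurkb had 12 and Cdca8 13 reads over the DIZE libraries, against 25 and 33 over the vehicle libraries, and both overlapped between groups. The exons of Cdca8 overlap those of 9930104L06Rik on the other strand.

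Cenpf, a large kinetochore and nuclear matrix protein gene, behaved differently from the other genes of its role in level. It had 17.3, 22.2, 20.8 and 24.9 CPM in DIZE, against 28, 27.1, 20.8 and 27.4 CPM in vehicle. Vehicle 3 lay inside the DIZE range, while the other vehicle libraries lay above it. The log2 fold change was -0.28 ± 0.15 (edgeR adjusted p = 0.322), and 0.0021 with the trends on GC content and length taken out of each library.

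Spindle motors and microtubule-binding proteins build the spindle, and all 6 had a lower mean in DIZE. Their summed level was 4.52, 4.61, 4.55 and 4.49 CPM in the DIZE libraries, against 12, 7.70, 11.3 and 10.6 CPM in the vehicle libraries, a ratio of 0.437. Kif11 encodes the kinesin that pushes the spindle poles apart. It had 1.95, 1.18, 1.31 and 1.37 CPM in DIZE, against 3.18, 2.82, 3.75 and 3.53 CPM in vehicle. Every vehicle library lay above every DIZE library (log2 -1.19 ± 0.25, edgeR adjusted p = 0.0888). Tpx2, which activates Aurka on the spindle, had 0.488, 1.18, 0.606 and 0.780 CPM in DIZE, against 2.26, 1.41, 1.61 and 1.86 CPM in vehicle (log2 -1.24 ± 0.33, edgeR adjusted p = 0.112). Its groups were also apart, as were those of Kif15, a partner motor of Kif11, with 15 reads over the DIZE libraries and 33 over the vehicle libraries.

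The remaining 3 genes of this role overlapped between groups. Nusap1, a microtubule-bundling protein gene, had 1.38 ± 0.352 CPM in DIZE and 2.37 ± 0.527 CPM in vehicle (log2 -0.79 ± 0.28, edgeR adjusted p = 0.175). Kif4, a chromosome-bound kinesin gene, had 12 reads over the DIZE libraries and 41 over the vehicle libraries, and its exons overlap those of Pdzd11 on the other strand. Hmmr, a spindle assembly factor gene, had 8 reads over the DIZE libraries and 29 over the vehicle libraries. In Nusap1 and Kif4 it was vehicle 2 that reached into the DIZE range, and in Hmmr it was vehicle 4.

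The central spindle forms between the separating chromosomes and places the cleavage furrow. All 7 genes had a lower mean in DIZE, and 2 had groups apart. Kif23, the kinesin subunit of the centralspindlin complex, had 0.366, 1.32, 0.606 and 0.975 CPM in DIZE, against 3.49, 3.21, 3.35 and 3.43 CPM in vehicle. The vehicle libraries lay close together and all above the DIZE range, and the fold was 4.13 (vehicle over DIZE; log2 -2.04 ± 0.32, edgeR adjusted p = 0.0707). Prc1, which bundles the microtubules of the central spindle, had 0.855, 1.05, 0.808 and 1.07 CPM in DIZE, against 2.36, 2.44, 2.68 and 3.14 CPM in vehicle. Again the groups did not meet (log2 -1.48 ± 0.26, edgeR adjusted p = 0.0707). The exons of Prc1 overlap those of Rccd1 on the other strand, which had 6.63 CPM in DIZE and 7.17 CPM in vehicle.

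Racgap1, the partner of Kif23 in centralspindlin, did not show the same gap. It had 1.59, 2.24, 1.31 and 1.37 CPM in DIZE, against 2.77, 1.41, 2.28 and 2.55 CPM in vehicle (log2 -0.50 ± 0.29, edgeR adjusted p = 0.369). The groups overlapped through vehicle 2. Ect2, the exchange factor that centralspindlin recruits to activate RhoA, had 20 reads over the DIZE libraries and 48 over the vehicle libraries, with overlap. Anln, the scaffold protein anillin of the cleavage furrow, had 1.57 ± 0.261 CPM in DIZE and 2.22 ± 0.977 CPM in vehicle, with a log2 value of 0.10 among the libraries whose titles lack db. Kif20b, a kinesin of late mitosis, had 1.08 ± 0.386 CPM in DIZE and 1.34 ± 0.659 CPM in vehicle. Kif20a, which brings passenger proteins to the central spindle, had 1.94 ± 0.740 CPM in DIZE and 2.52 ± 0.297 CPM in vehicle. The reads of Kif20a are uncertain, since its exons overlap those of Cdc23 on the other strand, with 40.3 CPM in DIZE and 41.4 CPM in vehicle.

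Among the mitotic genes, the largest difference in reads was in chromosome structure. Mki67 encodes Ki-67, which coats mitotic chromosomes and is the usual marker of cycling cells. It had 8, 6, 19 and 24 reads in DIZE, against 99, 28, 69 and 59 reads in vehicle. Every vehicle library was above every DIZE library, and in both groups the highest library had well over 2 times the level of the lowest. The mean was 1.51 ± 0.744 CPM in DIZE and 7.2 ± 3.05 CPM in vehicle, a log2 fold change of -2.21 ± 0.40 (edgeR adjusted p = 0.0707). Top2a encodes the topoisomerase that untangles replicated DNA. It had 2, 6, 12 and 12 reads in DIZE, against 52, 21, 38 and 38 reads in vehicle (log2 -2.25 ± 0.38, edgeR adjusted p = 0.0707). The groups were apart, with DIZE 1 the lowest and vehicle 1 the highest of the 8 libraries.

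Condensin genes differed from each other. Ncapg, a subunit of condensin I, had 0 reads in all 4 DIZE libraries, against 7, 3, 5 and 6 reads in vehicle. Set against a floor of 3 counts over the DIZE group, which stands for 0.0835 CPM, the pooled vehicle level of 0.597 CPM was 7.15-fold higher. The floor was a chosen setting, and the 21 vehicle reads were taken as exact, so this is a rough bound. Its exons overlap those of Lcorl on the other strand, which had 7.48 CPM in DIZE and 9.74 CPM in vehicle. Smc2, a core subunit of both condensins, had 3.30, 4.87, 2.63 and 1.66 CPM in DIZE, against 8.31, 5.90, 6.57 and 7.26 CPM in vehicle. The groups were apart (log2 -1.20 ± 0.29, edgeR adjusted p = 0.0971). Smc4, which pairs with Smc2, had 22.1, 43.6, 16.8 and 19.8 CPM in DIZE, against 34, 22.6, 24.5 and 26.4 CPM in vehicle. DIZE 2 was the highest of the 8 libraries, and the log2 fold change of -0.08 ± 0.27 became 0.078 without DIZE 3. It was -0.46 without DIZE 2 and -0.48 in the libraries whose titles lack db (edgeR adjusted p = 0.0656), so the value near 0 rests largely on DIZE 2. Per kilobase of exon, Smc4 stood at 4.90 RPKM in DIZE and 5.16 RPKM in vehicle, well above Smc2 at 0.568 RPKM in DIZE and 1.28 RPKM in vehicle.

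The 7 mitotic genes with the smallest edgeR p lie on 6 chromosomes. On GRCm38, in the GENCODE annotation, Kif23 (ENSMUSG00000032254) spans 61915905 to 61946774 of chromosome 9. Top2a (ENSMUSG00000020914) spans 98992943 to 99024189 of chromosome 11. Prc1 (ENSMUSG00000038943) spans 80294450 to 80316259 of chromosome 7, and Mki67 (ENSMUSG00000031004) spans 135689784 to 135716361 of the same chromosome. Kif11 (ENSMUSG00000012443) spans 37376403 to 37421859 of chromosome 19. Cdk1 (ENSMUSG00000019942) spans 69335146 to 69352938 of chromosome 10. Smc2 (ENSMUSG00000028312) spans 52439243 to 52488260 of chromosome 4.

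**Figure D3:**
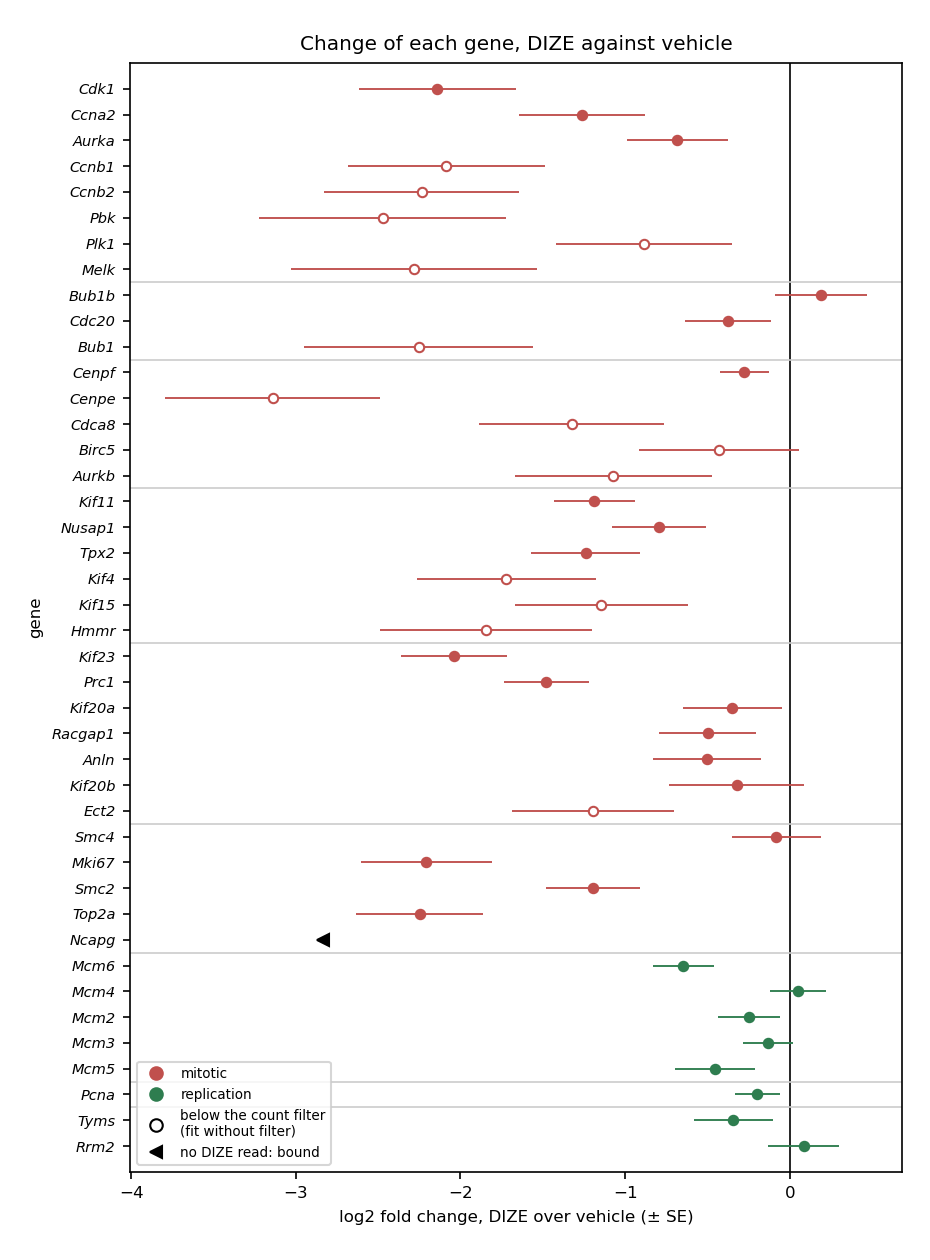
Log2 fold change, DIZE over vehicle, with its SE, for each gene by role; filled points passed the count filter, open points come from the fit without it, and the triangle is the bound for Ncapg. Points of cyclins and kinases, the kinetochore, the central spindle and chromosome structure reach beyond -2 (Cdk1 at -2.14, Cenpe at -3.14, Kif23 at -2.04, Top2a at -2.25), while the replication points lie between -0.65 (Mcm6) and 0.08 (Rrm2).

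Replication genes were measured by more reads and differed less than the mitotic genes as a whole. In the unfiltered fit their median was -0.20, near the -0.31 of the 6 mitotic genes over the filter level in all 8 libraries. The summed replication level was 86.3, 86.7, 93.9 and 91.9 CPM in DIZE, against 119, 99.4, 102.0 and 101 CPM in vehicle. The ratio was 0.851, or 0.891 without vehicle 1. The highest DIZE sum was thus below the lowest vehicle sum, by a small margin. The MCM genes encode the helicase that opens the DNA double strand. Mcm6 had 9.89, 9.74, 8.89 and 11 CPM in DIZE, against 19.6, 11.4, 18 and 12.9 CPM in vehicle. It was the only replication gene whose groups did not overlap (log2 -0.65 ± 0.19, edgeR adjusted p = 0.128).

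The other helicase subunits overlapped between groups. Mcm5 had 3.82 ± 1.25 CPM in DIZE and 5.29 ± 0.290 CPM in vehicle (log2 -0.45 ± 0.24, edgeR adjusted p = 0.322). Mcm2 had 8.66 ± 1.22 CPM in DIZE and 10.3 ± 2.37 CPM in vehicle (log2 -0.25 ± 0.19, edgeR adjusted p = 0.487). Mcm3 had 8.02 ± 0.714 CPM in DIZE and 8.80 ± 0.877 CPM in vehicle (log2 -0.13 ± 0.15). Mcm4 stood at 12.2 ± 2.05 CPM in DIZE and 11.9 ± 1.80 CPM in vehicle, a log2 value of 0.05 ± 0.17 that turned to -0.050 without vehicle 1. Subunits of 1 complex thus ranged from -0.65 to 0.05 on the log2 scale, and none passed the test.

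Pcna, the clamp that keeps polymerases on DNA and also serves in repair, had the highest level of the set by reads. It had 42.5, 41.7, 42.7 and 39.4 CPM in DIZE, against 59.1, 49.3, 38.1 and 44.1 CPM in vehicle. Vehicle 3 lay below all DIZE libraries and the other vehicle libraries lay above them (log2 -0.20 ± 0.14, edgeR adjusted p = 0.443). Per kilobase it stood at 17.3 RPKM in DIZE and 19.9 RPKM in vehicle, and a pseudogene, Pcna-ps2, held 89 reads beside its 3186. Rrm2, the S-phase subunit of ribonucleotide reductase, had 3.13 ± 0.140 CPM in DIZE and 2.95 ± 0.550 CPM in vehicle (log2 0.08 ± 0.22, and -0.031 without vehicle 2). Tyms, thymidylate synthase, had 2.39 ± 0.185 CPM in DIZE and 3.02 ± 0.765 CPM in vehicle (log2 -0.34 ± 0.24). For these 3 genes the DIZE libraries lay closer together than the vehicle libraries.

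The summed mitotic level depended on which genes were added. Over all 34 genes it was 62.8, 97.5, 65.2 and 74.2 CPM in DIZE 1 to 4, against 138, 99.4, 116 and 114 CPM in vehicle 1 to 4. DIZE 2 came close to vehicle 2, and the ratio of means was 0.641, or 0.682 without vehicle 1. Cenpf and Smc4 made up more than the other 32 genes together in every DIZE library, at 39.4, 65.8, 37.6 and 44.7 CPM in DIZE, against 62.0, 49.6, 45.3 and 53.8 CPM in vehicle. Without both, a choice made after the values were seen, the sum was 23.3, 31.7, 27.6 and 29.5 CPM in DIZE, against 76.1, 49.8, 70.5 and 60.6 CPM in vehicle. Those ranges were well apart, with a ratio of 0.436, or 0.465 without vehicle 1. By role the ratio ran from 0.336 for cyclins and kinases through 0.437 for spindle motors, 0.546 for cytokinesis, 0.676 for chromosome structure and 0.772 for passenger and kinetochore genes to 0.871 for the checkpoint. The helicase, the clamp and nucleotide synthesis were at 0.823, 0.873 and 0.926. Without vehicle 1 the ratio was 0.361 for cyclins and kinases, 0.461 for spindle motors and 0.581 for cytokinesis. It was 0.745 for chromosome structure, 0.791 for passenger and kinetochore genes and 0.867 for the checkpoint. The helicase and the clamp were then at 0.828 and 0.949, and nucleotide synthesis turned to 1.02.

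**Figure D4:**
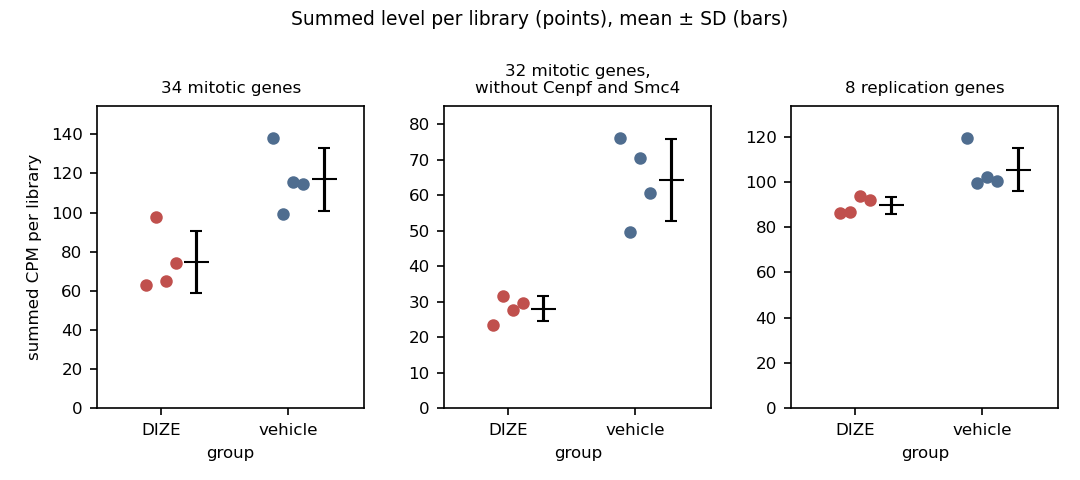
Summed CPM per library, with DIZE left of vehicle, for all 34 mitotic genes, for the 32 mitotic genes without Cenpf and Smc4, and for the 8 replication genes; points are libraries and bars give mean ± SD (n = 4). In the middle panel the DIZE libraries lie between 23.3 and 31.7 CPM and the vehicle libraries between 49.8 and 76.1 CPM.

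The size of the difference went with the level of the gene. Across 33 mitotic genes, all but Ncapg, the unfiltered log2 fold change and the log2 mean RPKM had a Spearman rho of 0.50, so that scarcer transcripts tended to lie further below 0. With GC content rho was 0.10. Level and fold change come from the same counts, so the rho with level may be partly built in, which was not tested. All points come from the same 8 libraries, and genes are not independent replicates. The 23 mitotic genes with CHR letters had a median of -1.19 in the unfiltered fit, against -2.09 for the 5 with a window and no CHR, and 12 of the 23 and 3 of the 5 had groups apart.

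The vehicle libraries also differed among themselves. Vehicle 1 was the highest vehicle library for 21 of the 34 mitotic genes and vehicle 2 the lowest for 20. The ratio of summed mitotic levels was 0.675 in the libraries with db and 0.605 in those without. With db alone, 2 libraries per group, 0 of the genes passed edgeR's test and no gene of the table did. Without db, 7 passed (Cenpe, Kif11, Kif23, Prc1, Mki67, Top2a and Smc2), where 6.01% of all genes were called lower. Cenpe had 1 and 1 reads in DIZE 3 and DIZE 4, against 11 and 11 in vehicle 3 and vehicle 4. It passed the filter only through vehicle and could only come out lower, so this count is not read against that share.

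Neighbouring pathways were followed through 5 lists of genes outside the set, and no gene of them passed edgeR's adjusted test. Their counts at an unadjusted p under 0.05 stand beside 10.3% of all tested genes lower and 9.11% higher. The 3 of 26 other mitotic genes and the 4 of 43 other replication genes are shares near that background. Of 60 other mitotic genes, 26 were tested, 22 lower and 4 higher. Their median was -0.22 on the log2 scale, against -0.01 over all tested genes. In the fit without the filter, 54 of the 60 were below 0 with a median of -0.66. Groups were apart with DIZE lower for 15 of the 60 and with DIZE higher for 0, against 3.55% and 3.67% of all genes with any read. Of the 15, only 3 were among the 26 tested genes, where 5.26% of all tested genes were apart with DIZE lower. The rest were below the count filter. At an unadjusted p under 0.05 there were 3 lower, DESeq2 called 2 (Kif22 and Aspm), and the test without the filter called 4 (Nuf2, Kif22, Ckap2 and Aspm), all named after their values were seen. Iqgap3, a scaffold gene linked to cell proliferation, had 0.610, 0.263, 0.404 and 1.17 CPM in DIZE, against 1.74, 1.67, 1.74 and 1.86 CPM in vehicle (log2 -1.46 ± 0.38, edgeR adjusted p = 0.109). Ncapg2, of condensin II, had 2.38 ± 0.481 CPM in DIZE and 4.62 ± 1.23 CPM in vehicle, with groups apart (log2 -0.95 ± 0.26, edgeR adjusted p = 0.116).

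Of 54 other replication genes, 43 were tested, 29 lower and 14 higher, with a median of -0.08. At an unadjusted p under 0.05 there were 4 lower and 1 higher, and DESeq2 and the edgeR test without the filter each called Tk1 and Timeless. Tk1, the S-phase thymidine kinase, had 2.81, 2.11, 3.44 and 2.63 CPM in DIZE, against 5.03, 6.03, 7.11 and 5.39 CPM in vehicle (log2 -1.08 ± 0.22, edgeR adjusted p = 0.083). Uhrf1, which carries DNA methylation through replication, had 1.13 ± 0.372 CPM in DIZE and 2.82 ± 0.812 CPM in vehicle (log2 -1.27 ± 0.31, edgeR adjusted p = 0.101). Both had groups apart with DIZE lower, whereas Pold1, the catalytic subunit of polymerase delta, had 15.9 ± 2.01 CPM in DIZE and 11.4 ± 2.51 CPM in vehicle, with DIZE higher in every library (log2 0.49 ± 0.18, edgeR adjusted p = 0.186).

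Genes that act before S phase were mixed. Of 23 tested genes of the G1 cyclins, their kinases and the E2F and RB families, 14 were lower and 9 higher (median -0.12), with 4 lower and 1 higher at an unadjusted p under 0.05. DESeq2 and the edgeR test without the filter each called Ccnd1 and Myc. Myc, a growth-promoting transcription factor, had 11.6, 7.76, 15.3 and 12 CPM in DIZE, against 4.31, 7.18, 7.11 and 5.49 CPM in vehicle. It lay higher in DIZE with no overlap (log2 0.97 ± 0.23, edgeR adjusted p = 0.0989). Ccnd1, cyclin D1 of the G1 phase, went the other way, at 20.1 ± 2.61 CPM in DIZE and 32.5 ± 8.63 CPM in vehicle (log2 -0.69 ± 0.19, edgeR adjusted p = 0.118).

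Of 17 tested inhibitors of cell cycle kinases and arrest genes, 6 were lower and 11 higher (median 0.04), with 1 lower and 3 higher at an unadjusted p under 0.05. DESeq2 called Cdkn1a and Meis1, and the edgeR test without the filter called Meis1. Cdkn1a, the inhibitor p21, had 105, 66.0, 40.3 and 45.1 CPM in DIZE, against 23.9, 46.7, 23.3 and 35.3 CPM in vehicle, with overlap through vehicle 2 (log2 0.99 ± 0.32, edgeR adjusted p = 0.153). Its log2 value was 0.64 without DIZE 1. Cdkn1b, the inhibitor p27, had 63.9 ± 4.00 CPM in DIZE and 51.9 ± 3.22 CPM in vehicle, with every DIZE library higher (log2 0.30 ± 0.10, edgeR adjusted p = 0.165). Meis1, a transcription factor known in mouse for holding cardiomyocytes out of the cycle, had 36.5 ± 5.74 CPM in DIZE and 24.8 ± 4.14 CPM in vehicle, with groups apart by a narrow margin (log2 0.56 ± 0.16, edgeR adjusted p = 0.126).

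All 23 genes of the anaphase-promoting complex and cohesin core were tested, 16 lower and 7 higher (median -0.15), with 7 lower and 0 higher at an unadjusted p under 0.05. DESeq2 called Nipbl and Wapl, and the edgeR test without the filter called Nipbl. Nipbl, the cohesin loader, had 48.6 ± 4.49 CPM in DIZE and 72.8 ± 14.2 CPM in vehicle (log2 -0.58 ± 0.15, edgeR adjusted p = 0.102). Wapl, which releases cohesin, had 49.9 ± 3.68 CPM in DIZE and 67.0 ± 7.68 CPM in vehicle (log2 -0.43 ± 0.12, edgeR adjusted p = 0.118). Both had groups apart, and both also serve cells that do not divide.

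The hearts were checked against markers of the cells they could hold, and some of these lay in the same direction as the mitotic genes. Cardiomyocyte markers, 12 of 12 tested, were higher in DIZE for 11 and lower for 1 (median log2 0.12), and summed to 53476 to 60077 CPM in DIZE and 35652 to 58923 CPM in vehicle, the highest of any marker list. Their ratio of sums, DIZE over vehicle, was 1.14, or 1.05 without vehicle 1. Markers of activated fibroblasts were lower in DIZE for 6 of 6 tested (median log2 -1.10), with sums of 211 to 276 CPM in DIZE and 342 to 486 CPM in vehicle, and no overlap. The ratio of these sums was 0.627, or 0.679 without vehicle 1. At an unadjusted p under 0.05, 4 of the 6 were lower and 0 higher, against 10.3% of all tested genes lower. Groups were apart with DIZE lower for 3 of the 6, against 5.26% of all tested genes. DESeq2 called 4 markers of this list, and 0 passed edgeR's adjusted test. Postn, or periostin, had 48.8 ± 9.78 CPM in DIZE and 138 ± 77.8 CPM in vehicle, and Acta2, the smooth muscle actin, had 107 ± 8.64 CPM in DIZE and 108 ± 19.1 CPM in vehicle.

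Macrophage markers were lower for 11 of 12 tested, with sums of 433 to 511 CPM in DIZE and 488 to 760 CPM in vehicle. Fibroblast markers were lower for 10 of 12, at 2906 to 4594 CPM in DIZE and 3437 to 4895 CPM in vehicle. Endothelial markers were lower for 7 of 10, at 1671 to 2400.0 CPM in DIZE and 1790.2 to 2669 CPM in vehicle. The sums of these 3 lists overlapped between groups. At an unadjusted p under 0.05, 4 fibroblast, 4 macrophage and 1 endothelial markers were lower and 0 higher, against 10.3% of all tested genes lower. Groups were apart with DIZE lower for 3 fibroblast, 1 macrophage and 0 endothelial markers, against 5.26% of all tested genes. DESeq2 called 2 fibroblast markers and 0 of the macrophage and endothelial markers. Without vehicle 1 the ratio of sums went from 0.821 to 0.917 for macrophages and from 0.950 to 0.957 for endothelial cells. For fibroblasts it turned from 0.966 to 1.05. Erythroid markers were lower for 5 of 6 tested, at 170.1 to 247 CPM in DIZE and 239 to 399 CPM in vehicle, with a median log2 of -1.75. All 5 had an unadjusted p under 0.05. Of these, 4 had groups apart, the globin genes Hba-a1, Hba-a2, Hbb-bs and Hbb-bt, and DESeq2 called Hbb-bt. The erythroid ratio of sums was 0.688, or 0.735 without vehicle 1. Hbb-bs had 20.5 ± 15.1 CPM in DIZE and 71.4 ± 27.9 CPM in vehicle (log2 -1.79 ± 0.60, edgeR adjusted p = 0.177). The globin genes thus lay in the same direction as the mitotic genes, and the part of blood in the mitotic values was not tested. Lists of T and NK cells, B and plasma cells and neutrophils summed to at most 10.3 CPM in any DIZE library and 7.80 CPM in any vehicle library, and Elane was at 0 in all libraries. Mast cell markers were lower for 5 of 5 tested, at 12.6 to 35.4 CPM in DIZE and 24.6 to 59.9 CPM in vehicle, with overlap. Their ratio of sums was 0.653, or 0.813 without vehicle 1. The 4 tested atrial markers were all lower (median log2 -2.76), with overlap. The atrial list had a ratio of sums of 0.185, or 0.392 without vehicle 1. Smooth muscle and pericyte markers were lower for 5 of 7, at 1477 to 1614 CPM in DIZE and 1513 to 1942 CPM in vehicle. Epicardial markers were lower for 4 of 5, at 25.6 to 74.0 CPM in DIZE and 38.9 to 63.4 CPM in vehicle. Schwann cell markers were lower for 2 of 3, at 12.9 to 20.1 CPM in DIZE and 13.9 to 21.4 CPM in vehicle. Without vehicle 1 the ratio of sums went from 0.900 to 0.919 for smooth muscle and pericytes. It turned from 0.927 to 1.03 for epicardial markers and from 0.959 to 1.06 for Schwann cells. Within these bulk libraries, the part of changed cell numbers in the mitotic values was not tested.

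**Figure D5:**
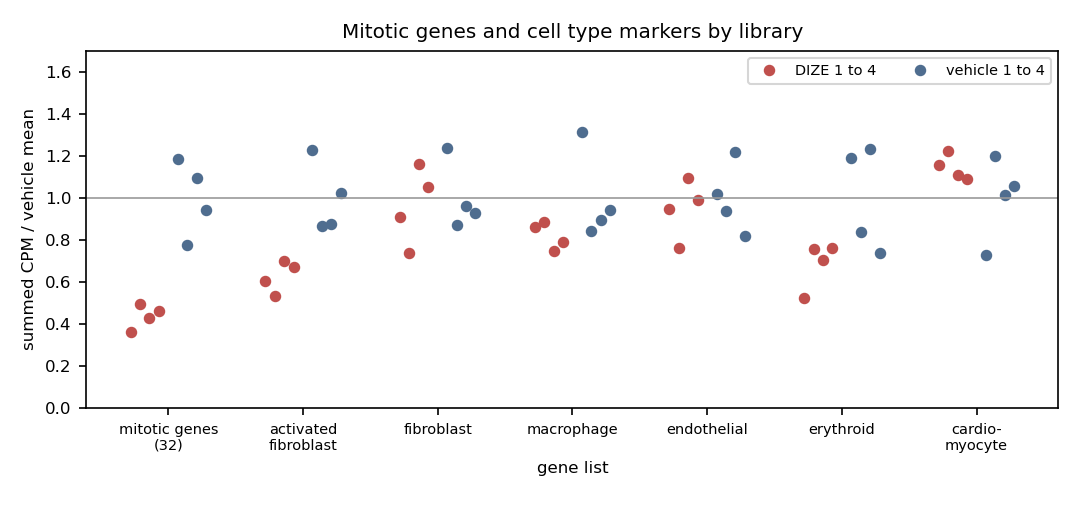
Summed CPM of 32 mitotic genes (without Cenpf and Smc4) and of 6 marker lists in each library, divided by the mean of the vehicle libraries; DIZE libraries stand left of vehicle libraries. The mitotic genes and the activated fibroblast markers (211 to 276 CPM in DIZE, 342 to 486 CPM in vehicle) have groups apart, and the sums of the other lists overlap. Cenpf and Smc4 were left out after the values were seen, while no marker list was trimmed. The ratio of sums was 0.436 for these 32 genes, 0.641 for all 34 mitotic genes and 0.627 for the activated fibroblast markers.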

How the data were processed

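Heart RNA was extracted with TRIzol and made into stranded poly(A) libraries read as pairs, per the labels' protocols. Per the submitters' processing notes, which give no roles, the tools were STAR 2.7.3, R 4.1 with edgeR, and HTSeq 0.6.1p1, and the build was mm10. Whether reads were counted by strand is not given in the sources used here, so reads of genes that overlap on opposite strands are uncertain. The authors' deposited table holds raw counts, whole reads per Ensembl gene, without normalization.

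Columns were assigned to samples through the description field of the labels. Symbols were matched for 55141 of 55487 genes, and 346 had none. The most alike pair of libraries still differed by a chi-square of 5.23 per degree of freedom, so all 8 were kept as separate samples. Replicate numbers follow accession order.

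All other values were computed here. CPM are counts scaled to reads in tested genes with TMM factors, and RPKM divides CPM by exon length in kilobases. Genes were tested with the quasi-likelihood method of edgeR (version 4.0.16, R 4.3.3, robust, two-sided, no covariate, filterByExpr with minimum count 10 and minimum total 15), with Benjamini-Hochberg adjustment over 13648 genes at 0.05, checked on simulated counts. The alternatives were DESeq2 1.42.0, limma-voom (limma 3.58.1), other size factors and filters, title number or title form as a block, each title form alone, removal of GC and length trends, and leaving out each library. All 42 genes could be named, and of each pathway list up to 4 with the smallest p, of each marker list the 2 most abundant. The genes, lists and tests were chosen with earlier results of these data known.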

Additional observations from a re-analysis of the deposited data

Results flagged for a closer look

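In each group of 4 libraries, the gap between the highest or lowest library and its nearest neighbour was set against the whole range of the group, for every gene and for the 2 sums. Chance marks about 1 in 20 groups, and 5 of 88 were marked here.

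Pbk, a mitotic kinase gene, had 1.95 CPM in vehicle 1 and 0.385 to 0.536 CPM in vehicle 2 to 4, or 19 reads and 3 to 4 reads. Bub1b had 3.49 CPM in vehicle 3 and 2.26 to 2.36 CPM in the rest of its group. Cenpf had 20.8 CPM in vehicle 3, the lowest of its group, whose other members had 27.1 to 28 CPM. Mcm2 had 6.84 CPM in DIZE 1, the lowest, and 9.10 to 9.36 CPM in DIZE 2 to 4. The summed level of the 8 replication genes was 119 CPM in vehicle 1 and 99.4 to 102.0 CPM in vehicle 2 to 4.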

How the results depend on the processing

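Depth limits these results, since 17 of the 42 genes had fewer than 10 reads in every DIZE library. The number of genes of the whole table past the threshold, 5, became 588 with DESeq2, 386 without the filter, 9 with title form as a block, 10 with GC and length trends removed, 0 in titles with db, 1349 in titles without db, and 0 to 240 when a library was left out, the most without vehicle 2. Of the 42 genes, 0 passed, but 7 did with DESeq2, 9 without the filter, 7 in titles without db and 0 to 5 when a library was left out. The median log2 fold change of tested mitotic genes, -0.79, became -1.22 with DESeq2, -1.20 without the filter, -1.18 with a filter on the mean and -1.20 in titles without db, settings that admit more of the scarce genes, and -1.25 to -0.74 when a library was left out. Many of the tested mitotic genes would not have passed the filter on their DIZE libraries alone. In the same fit as the -0.79, the 6 mitotic genes over the filter level in all 8 libraries had a median of -0.33. The mitotic sum ratio of 0.641 became 0.436 without Cenpf and Smc4. The 19 genes with groups apart became 30 in titles with db and 33 in titles without db, where fewer libraries must be apart and 31.4% and 38.5% of all genes with any read were apart too, so these counts are not read as a result about the members. They were 20 to 25, all lower in DIZE, when a library was left out. There 4.79% to 7.38% of all genes with any read were apart with DIZE lower, against 3.55% with all libraries. Fewer libraries must be apart there too, so this rise is not read as a result. The replication ratio, 0.851, lay between 0.791 and 0.916 under all alternatives run.

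Same-numbered titles did not deviate together (correlations of -0.08, 0.01, 0.02, -0.14 and -0.01 over genes), so the numbers were not taken as pairs. With the title number as a replicate block, 0 genes of the table passed and the mitotic median was -0.63. Signs turned for 6 genes, and the cause was not tested. Smc4 had 0.073 with the replicate block, 0.028 with GC and length trends removed, 0.078 without DIZE 3, 0.031 without DIZE 4, 0.051 without vehicle 1 and 0.22 in titles with db, and its range with a library left out was -0.46 to 0.078. Mcm4 had -0.014 without DIZE 3, -0.028 without DIZE 4, -0.050 without vehicle 1 and -0.11 in titles with db, with a range of -0.050 to 0.13. Rrm2 had -0.031 without vehicle 2 and a range of -0.031 to 0.18. Cenpf had 0.0021 with GC and length trends removed, and in titles without db Bub1b had -0.078 and Anln 0.10, where all libraries gave -0.51.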
